A study of Arabidopsis thaliana with 20 samples.

Results

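The 311 microRNA (miRNA) genes of the Arabidopsis nuclear genome outside the MIR156 and MIR172 families were followed through 12 ChIP-seq peak lists of 3 chromatin remodelling proteins. They were taken from the RefSeq annotation of TAIR10.1 by biotype: of 326 nuclear miRNA genes, the 15 named MIR156 or MIR172 were left out, and the 311 form 213 families, of which 47 have more than 1 gene. The annotation holds 37899 nuclear genes in all. A gene was called marked in a list when the summit of a peak lay between 2 kb upstream and 500 bp downstream of its annotated start. The ChIP-seq used an antibody against GFP in 14-day-old seedlings grown in short days, with 2 libraries for each of 6 groups. BCL7A in brm-1 (pBCL7A:BCL7A-GFP in bcl7a brm-1) was compared with BCL7A (the same transgene in bcl7a), and BCL7B in brm-1 (pBCL7B:BCL7B-GFP in bcl7b brm-1) with BCL7B (the same transgene in bcl7b). BRM in bcl7ab (pBRM:BRM-GFP in brm-1 bcl7a bcl7b) was compared with BRM (the same transgene in brm-1). Each tagged protein was driven by its own promoter and all 6 groups lack the untagged copy of the protein that was precipitated, so no group is wild type. The study's methods call the libraries of a group biological replicates, and neither they nor the labels say whether these were grown separately, so p-values measure the spread between these libraries.

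BRM is the ATPase of a plant SWI/SNF complex, which moves or evicts nucleosomes, and BCL7A (AT4G22320) and BCL7B (AT5G55210) are a pair of homologous small subunits found with it. Plant miRNA genes are transcribed by RNA polymerase II from their own promoters or from within a host gene, and the transcript folds into a hairpin that DCL1 cuts into a short mature miRNA. The mature miRNA guides AGO1 to nearly complementary messenger RNAs, many of which encode transcription factors that set leaf polarity, meristem identity, organ boundaries and hormone responses.

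The mature miRNAs of the genes that the comparisons below turn on are printed here because genes of 1 family often make the same miRNA while differing in the peaks beside them. They were read 5′ to 3′ from the RefSeq TAIR10.1 genome at the annotated positions, with the seed (bases 2 to 8) in capitals. Annotated mature miRNAs were found for all 311 genes (404 sequences with 301 distinct seeds), and 54 seeds occurred in more than 1 gene.
miR166d: uCGGACCAggcuucauucccc
miR166b-3p: uCGGACCAggcuucauucccc
miR396a-5p: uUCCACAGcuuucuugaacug
miR396b-5p: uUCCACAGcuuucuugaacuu
miR167c-5p: uAAGCUGCcagcaugaucuug
miR169a-5p: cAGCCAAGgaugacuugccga
miR171a-3p: uGAUUGAGccgcgccaauauc
miR170-3p: uGAUUGAGccgugucaauauc
miR393a-5p: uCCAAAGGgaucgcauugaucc
miR394b-5p: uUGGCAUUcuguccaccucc
miR162b-3p: uCGAUAAAccucugcauccag
miR168b-5p: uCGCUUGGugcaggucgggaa
miR159a: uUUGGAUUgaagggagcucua
miR157d: uGACAGAAgauagagagcac
miR773a: uUUGCUUCcagcuuuugucuc
miR773b-3p: uUUGAUUCcagcuuuugucuc
MIR166d and MIR166b encode identical mature miRNAs, whose seed CGGACCA is shared by 9 genes of the MIR165 and MIR166 families, 8 of which were marked in some list. miR171a-3p and miR170-3p share a seed, as do miR396a-5p and miR396b-5p. The seed of miR169a-5p is found in 10 MIR169 genes, of which 2 were marked in some list. The seeds of miR773a and miR773b-3p differ.

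The members were short and crowded, which sets what a peak beside one of them can mean. The annotated gene had a median length of 150 bp (59 to 689 bp), with 273 of 311 at 300 bp or less, so for most of them the annotated start lies at or near the hairpin and is not the transcription start. Of the 311 genes, 196 lay between other genes, 80 overlapped another gene on the same strand and 35 overlapped one on the opposite strand. The start of a gene of another kind lay within 2000 bp of 236 of them, at a median distance of 1010 bp over all 311. A peak in the window can therefore belong to a neighbour. In BCL7A replicate 1 the strongest summit was nearest to a miRNA start for 48 of 122 marked members and to a protein-coding start for 58. It was 49 and 56 of 121 in BCL7B replicate 1, and 51 and 41 of 103 in BRM replicate 1. The counts of marked genes below do not separate these, and the nearest start is given for the fates and for some named genes.

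In the lists of the 3 proteins, 95 to 127 of the 311 miRNA genes were marked. BCL7A in brm-1 marked 127 and 123 of them, against 122 and 123 for BCL7A. BCL7B in brm-1 marked 102 and 99, against 121 and 115 for BCL7B. BRM in bcl7ab marked 95 and 103, against 103 and 105 for BRM. These shares, 30.5% to 40.8%, lay below the 42.3% to 54.5% of all nuclear genes and the 49.4% to 63.7% of protein-coding genes in the same lists. Of the members, 140 (45%) were marked in no list, against a background of 33.4% of all nuclear genes, and 46 (14.8%) were marked in all 12 lists, against 24.1%.

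**Figure D1:**
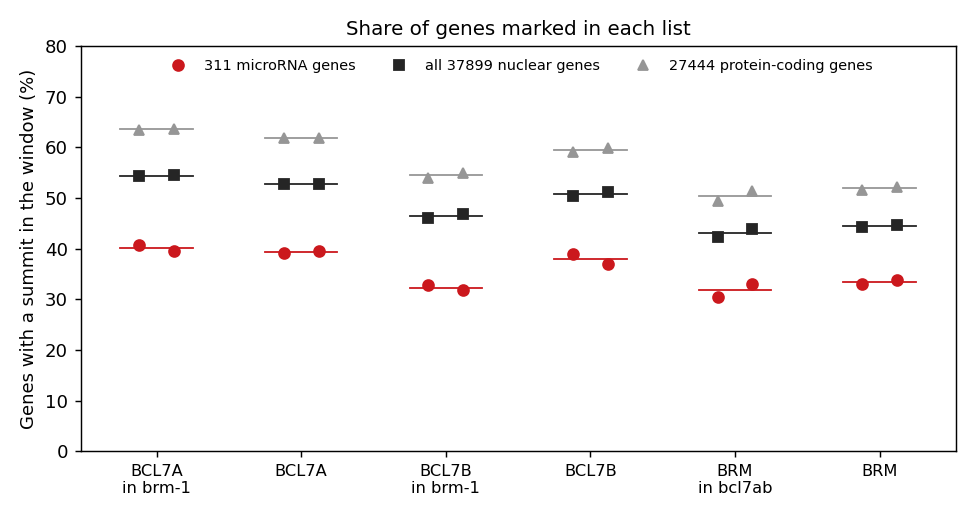
Percent of genes with a peak summit in the window from 2 kb upstream to 500 bp downstream of the annotated start, for each of the 12 libraries, in miRNA genes outside MIR156 and MIR172, in all nuclear genes and in protein-coding genes, with lines at the mean of the 2 libraries. In every library the miRNA genes lie lowest, between 30.5% and 40.8%, and the protein-coding genes highest, between 49.4% and 63.7%.

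The lists held 14770 to 18870 nuclear peaks each, and the genome background behind them corresponded to 15.7 to 30.9 overlapping fragments at a position, the sign of depth that the lists hold. Those of BRM held weaker and wider peaks than those of BCL7A and BCL7B: their weakest peak had a −log10 q of 0.475 to 0.577, against 2.03 or more, and their median width was 799 to 841 bp, against 519 to 542 bp. The methods name a single q limit for every list, which the weakest BRM peaks do not reach. Whether this difference contributes to any difference between BRM and the BCL7 proteins cannot be told apart from the protein.

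Among the members, each of the 3 proteins shared most of its own genes with both others. Counting genes marked in both libraries of a group, 66 members carried BCL7A, BCL7B and BRM, 30 carried BCL7A and BCL7B without BRM, and 13 carried BRM alone. A further 10 carried BCL7A alone, 7 carried BCL7B and BRM, 6 carried BCL7A and BRM, and 3 carried BCL7B alone. The remaining 176 had none of the 3 in both libraries. Of the 311 miRNA genes 112 (36%) carried BCL7A in both libraries, beside 49.3% of all nuclear genes, 106 (34.1%) carried BCL7B, beside 47.3%, and 92 (29.6%) carried BRM, beside 38.9%. In the mutants, 115 carried BCL7A in both brm-1 libraries, beside 51.3% of all nuclear genes, 89 carried BCL7B, beside 42.5%, and 85 carried BRM in both bcl7ab libraries, beside 37.3%. MIR319c, whose miRNA targets TCP genes, MIR165a, which targets HD-ZIP III genes, and MIR858b were among the 13 with BRM alone. In MIR319c the fold enrichment over background was 1.51 and 1.63 in BRM in bcl7ab, against 1.44 and 2.12 in BRM, with no peak in any of the 8 BCL7A and BCL7B lists. The weakest fold that the pileup limit would pass over the genome background was 1.28 to 1.33 in the BRM lists. In the BCL7A and BCL7B lists it was 1.66 to 1.86, above the 1.51, 1.63 and 1.44 of MIR319c and below its 2.12. The weakest fold listed at any local background was 1.21 to 1.45 in those lists. A fold in a BRM list does not give the fold in a BCL7 list, and the part of these limits was not tested.

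The strongest summit in the window of a marked member lay far upstream of the annotated start. The median position per library was between −649 and −479 bp from that start, whereas over all marked nuclear genes it was between −122 and −24 bp. The library medians averaged −545 bp for BRM and −568 bp for BCL7A, a difference of 23 bp that was within the spread between libraries (exact two-sided permutation test, p = 0.667, n = 2 libraries each). BRM and BCL7B differed by 10.5 bp, at −545 bp and −555.5 bp (exact two-sided permutation test, p = 0.667, n = 2 each). With 2 libraries against 2 this test cannot go below 0.333. The smaller of these differences changed sign when 1 library was left out: it was −2.5 bp without BRM replicate 2 and −12 bp without BCL7B replicate 2. Both differences depend on how the summit is chosen. BRM summits lay nearer to the start than those of BCL7A by 127.75 bp in a window of 1 kb upstream, by 108.5 bp for summits nearest to a miRNA start, by 66.75 bp with the summit nearest to the gene start in place of the strongest, and by 44.75 bp with a −log10 q of 5 or more. Against BCL7B they were nearer by 85.75, 54, 73 and 45.25 bp under the same settings in turn. The libraries of the compared groups did not overlap in these settings, at the smallest p the exact two-sided permutation test allows (0.333), except for BCL7B with the −log10 q of 5 (p = 0.667). Over all marked nuclear genes BRM summits were also nearer in the main setting. The library medians there were −32 and −24 bp for BRM, −105 and −106 bp for BCL7A, and −103 and −102.5 bp for BCL7B.

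Gene by gene, the summits of the 3 proteins were compared in position. Over the 96 members marked in all 4 libraries, the mean summit of BCL7B lay a median of 32.5 bp from that of BCL7A, and 89 were within 200 bp. The mean summit of BRM lay a median of 183.5 bp from that of BCL7A over 72 members and 154.5 bp from that of BCL7B over 73. Replicates of 1 group were 30.5 to 66 bp apart, and the peaks of BRM were wider, as given above. At MIR168a, whose miRNA targets AGO1, the BRM summits were at 18 and 44 bp, inside the gene, and the BCL7B summits at −249 and −322 bp.

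**Figure D2:**
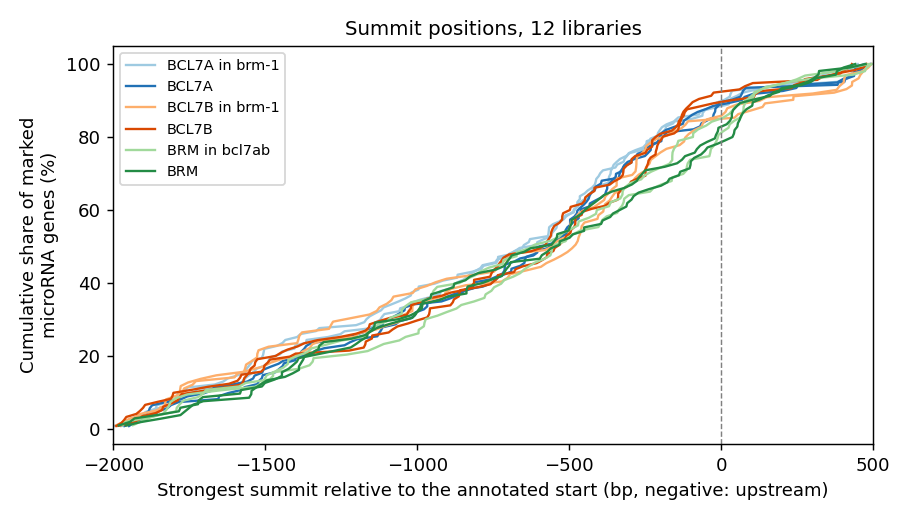
Cumulative percent of the marked miRNA genes by the position of the strongest summit in the window, in bp from the annotated start (negative is upstream), with 1 line for each library. The library medians lie between −649 and −479 bp, and the lines of the groups cross.

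Fold enrichment (the height of a peak over its local background) ranked the marked members near the middle of each list. Their median percentile was 46.3 to 52.5, against 52.7 to 58.6 over all marked genes. MIR166a, a source of miR166, was the strongest of the marked members for BRM. It had a fold enrichment of 7.46 and 7.05 in BRM and a mean percentile of 97.9, with summits at −80 and −104 bp. MIR168a and MIR168b, which make the miRNA that targets AGO1, were also among the 10 strongest members for BRM. So was MIR167a, which targets the auxin response factors ARF6 and ARF8. Of these 10, MIR8166, MIR8182, MIR5014a and MIR8121 had the start of a protein-coding gene nearest to the summit.

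For both BCL7 proteins MIR8182, MIR157d and MIR159b were the strongest members. MIR157d, a source of the miRNA that targets SPL transcription factors, had a fold enrichment of 8.34 and 7.83 in BCL7B, but its summits lay at −1924 and −1934 bp, nearest to the start of the protein-coding AT1G48745. MIR8182 lies inside AT3G61260, whose start was nearest to its summits. MIR159a, which targets GAMYB-like MYB genes, had 5.85 and 6.17 in BCL7B and 5.20 and 4.69 in BCL7A, and its summits were nearest to its own start.

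Grouped by the genes their miRNAs target, the families of known role held 86 of the 311 genes, and 52 of the 86 were marked in some list. Of the 44 genes whose miRNAs target developmental regulators, which are transcription factors except for the F-box gene LCR that miR394 targets (the families MIR157, MIR159, MIR164, MIR165, MIR166, MIR169, MIR170, MIR171, MIR319, MIR394 and MIR396), 29 were marked in some list and 7 in all 12. Those 7 included MIR166a, MIR166g, MIR159a and MIR157c. Of the 11 auxin signalling genes (MIR160, MIR167, MIR390 and MIR393), 9 were marked in some list and 3 in all 12, namely MIR160a, MIR167a and MIR167d. Of the 6 genes acting on the small RNA machinery (MIR162, MIR168, MIR403 and MIR838), 5 were marked in some list and 3 in all 12: MIR162a, MIR168a and MIR168b. MIR838, which lies within DCL1, was in no list.

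The nutrient-response families held many genes in no list. Of 23 genes (MIR395, MIR397, MIR398, MIR399, MIR408, MIR778, MIR827, MIR857 and MIR2111), 16 (69.6%) were marked in no list, beside 45% of all 311 members and 33.4% of all nuclear genes. The 16 include all 6 MIR395 genes of sulfate starvation. The copper-response genes MIR398a, MIR398b and MIR408 were in all 12. MIR408 had a fold enrichment of 3.73 and 3.96 in BCL7A in brm-1, against 3.58 and 3.81 in BCL7A, and 2.56 and 2.69 in BRM in bcl7ab, against 2.36 and 2.15 in BRM. Of the 4 trans-acting siRNA triggers (MIR173, MIR828 and both MIR390 genes), none was in all 12 lists.

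**Figure D3:**
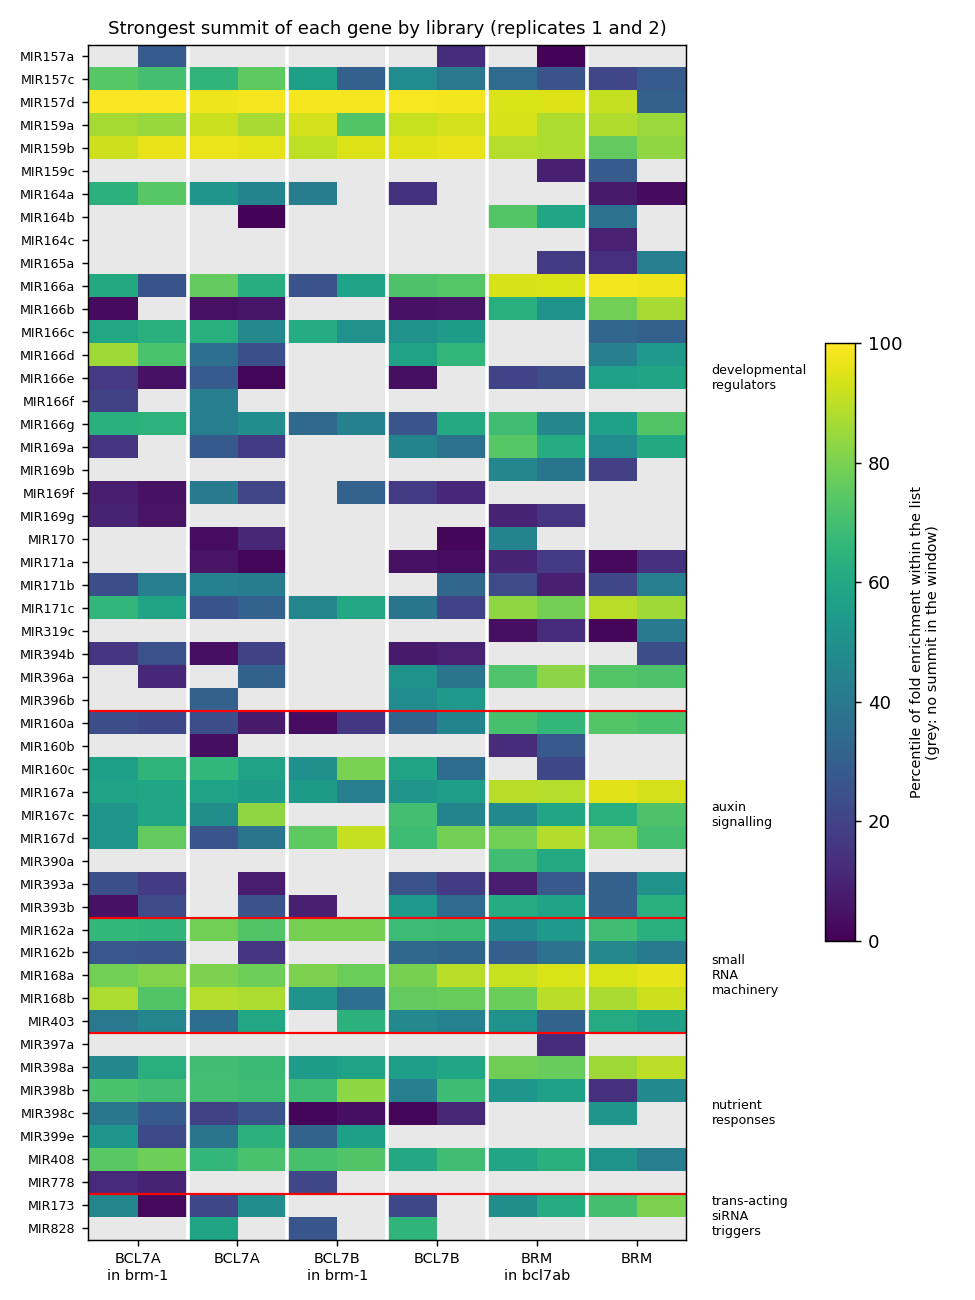
Percentile, within its own list, of the fold enrichment of the strongest summit in the window (colour, 0 to 100; grey where the window holds no summit), for the 52 miRNA genes of the families of known role that are marked in some list. Rows are genes, with red lines between roles, and columns are the 2 libraries of each group, with each mutant group left of its counterpart; of the 86 genes of these families, 16 are marked in all 12 libraries.

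The question put to each protein was whether its peaks beside miRNA genes depend on the rest of the complex. A member marked in both libraries of the group without the added mutation was called kept when it was marked in both mutant libraries, partial in 1 and lost in neither. A member marked in both mutant libraries and in neither other library was called new. A missing peak means only that no peak passed the limits of the list there, and the signal below those limits was not analysed here.

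BCL7A peaks beside miRNA genes were nearly all found again without BRM. Of 112 members marked in both BCL7A libraries, 105 were kept in brm-1, 5 were partial and 2 were lost, so 93.8% were kept (95% Wilson interval 87.7% to 96.9%), beside a background of 94% of all nuclear genes kept, 3.97% partial and 2.05% lost. The 2 lost genes were MIR171a and MIR170, whose miRNAs share a seed and target HAM genes of the shoot meristem. MIR171a had a fold enrichment of 2.02 and 1.85 in BCL7A and MIR170 had 1.96 and 2.21, at the 1.39 to 10.8 percentiles of their lists, and BCL7A in brm-1 had no peak overlapping either. The weakest fold that the pileup limit of the BCL7A in brm-1 lists would pass over the genome background was 1.66 and 1.70. The number of marked members was 125 ± 2.83 in brm-1 and 122.5 ± 0.707 in BCL7A (SD, n = 2 each; ratio 1.02, exact two-sided permutation test, p = 0.667).

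In brm-1, BCL7A peaks were new beside 6 members, against a background of 3.91% of the nuclear genes marked in neither BCL7A library. They were MIR773b, MIR778, MIR2934, MIR5020a, MIR169g and MIR8184. MIR773b (chr1:13050667-13050864, minus strand) had a fold enrichment of 2.14 and 2.32 in BCL7A in brm-1 and no summit in the window in the other 10 libraries. MIR778, whose miRNA targets a histone methyltransferase gene in phosphate starvation, had 2.14 and 2.11. For MIR169g and MIR8184 a protein-coding start (ENDO5 and AIL6) was nearest to the summit.

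Of the 105 members marked in all 4 libraries, 4 changed in strength, by limma with Benjamini-Hochberg adjustment over 17575 genes on the log2 fold enrichment centred on each library's median. MIR773a rose most: its fold enrichment was 6.30 and 6.49 in BCL7A in brm-1, against 2.81 and 3.23 in BCL7A, with no overlap between the groups. The centred log2 difference was 1.12 (SE 0.119, limma adjusted p = 0.00141, Benjamini-Hochberg). MIR166d also rose, at 4.36 and 3.69 in BCL7A in brm-1, against 2.77 and 2.53 in BCL7A (log2 difference 0.64, limma adjusted p = 0.0354). Beside these 2, 0.364% of all genes tested rose.

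MIR5017 and MIR8121 fell, beside 0.432% of all genes tested. MIR5017 was at 2.16 and 2.02 in BCL7A in brm-1, against 3.35 and 3.13 in BCL7A (log2 difference −0.59, limma adjusted p = 0.0358). MIR8121 was at 2.25 and 2.75, against 3.95 and 3.65 (log2 difference −0.57, limma adjusted p = 0.0497). The call for MIR773a held in all 9 alternatives, while those for MIR166d and MIR8121 were lost without BCL7A in brm-1 replicate 1 (limma adjusted p = 0.105 and 0.193), that for MIR8121 also without BCL7A replicate 1 (0.0657), and that for MIR5017 without BCL7A in brm-1 replicate 2 (0.0799). A start of a protein-coding gene was nearest to the summits of MIR8121 and MIR5017, whereas MIR773a and MIR166d lay nearest to their own.

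Without BRM, 15 miRNA genes lost the BCL7B summits in their windows, among them genes of the MIR166, MIR167, MIR169, MIR171, MIR393, MIR394 and MIR396 families. Of 106 members marked in both BCL7B libraries, 80 were kept in brm-1, 11 were partial and 15 were lost, so 75.5% were kept (95% Wilson interval 66.5% to 82.7%), beside a background of 82.6% of all nuclear genes kept and 9.29% partial. The lost share was 14.2% (8.77% to 22%), beside 8.08% of all nuclear genes. The number of marked members was 100.5 ± 2.12 in brm-1 and 118 ± 4.24 in BCL7B (SD, n = 2 each; ratio 0.852), with no overlap between the groups and the smallest p that the exact two-sided permutation test allows (0.333). The ratio was 0.524 when only peaks enriched at least 3-fold were counted (38.5 in brm-1 and 73.5 in BCL7B), and 0.69 for summits nearest to a miRNA start. Without these limits the lists as a whole also shrank, to 0.860 times the peaks, and the marked nuclear genes to 0.917 times. At the 3-fold limit and for miRNA starts no ratio over all genes was taken. The median fold of all nuclear peaks was 2.80 and 2.78 in BCL7B in brm-1, against 3.38 and 3.39 in BCL7B. The 3-fold limit thus lay above the median peak in brm-1 and below it in BCL7B.

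The 15 lost genes were MIR166d, MIR166b, MIR167c, MIR396a, MIR396b, MIR169a, MIR171a, MIR393a, MIR394b, MIR162b, MIR822, MIR863, MIR414, MIR5995b and MIR5026. No peak of BCL7B in brm-1 overlapped the strongest BCL7B peak of 14 of them, the exception being MIR162b. MIR166d (chr5:2840622-2840734, plus strand), which targets the HD-ZIP III genes of leaf polarity, had a fold enrichment of 3.65 and 3.99 in BCL7B at the 57.8 and 66.3 percentiles, and the nearest summits in BCL7B in brm-1 were 1928 and 1955 bp away.

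Both genes of the MIR396 family, whose miRNAs target the growth-regulating factors, were lost. MIR396a (chr2:4142323-4142473, minus strand) had 3.41 and 3.06 in BCL7B and MIR396b (chr5:13611798-13611932, plus strand) had 3.33 and 3.52, with summits between −155 and −115 bp. The nearest summits in BCL7B in brm-1 were 136351 and 136369 bp from those of MIR396a. In the BRM lists MIR396a had a peak at 3.09 and 3.82 in BRM in bcl7ab, against 3.14 and 3.06 in BRM, and MIR396b had none.

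MIR167c, of auxin signalling, had 4.15 and 3.24 in BCL7B, and MIR169a, whose miRNA targets NF-YA genes, had 3.23 and 3.05. MIR393a, which targets the TIR1 and AFB auxin receptors, had 2.73 and 2.53, and MIR162b, which targets DCL1, had 2.93 and 2.90. All 4 were lost in brm-1 by the rule of the window. At MIR162b a peak still overlapped the BCL7B peak in both brm-1 libraries, with no summit in the window. MIR166b (2.13 and 2.14), MIR171a (2.13 and 2.05) and MIR394b (2.23 and 2.28) were among the weakest of the 15. The weakest fold that the pileup limit would pass over the genome background was 1.70 and 1.68 in BCL7B in brm-1, against 1.80 and 1.86 in BCL7B.

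By role, the developmental families held 7 of the 15 losses. Of the 16 genes for developmental regulators marked in both BCL7B libraries, 8 were kept and 7 lost, and of the 7 auxin genes 4 were kept and 2 lost. The 5 genes of the small RNA machinery had 3 kept and 1 lost, MIR162b, whose peak was still overlapped in brm-1. The 4 nutrient genes were all kept. Over the families of known role 10 of 32 were lost (31.2%) and over the other members 5 of 74 (6.76%), beside 8.08% of all nuclear genes. These lists were chosen with such results known, so the split is a description and was not tested. The related MIR166a, MIR166c and MIR166g were kept.

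**Figure D4:**
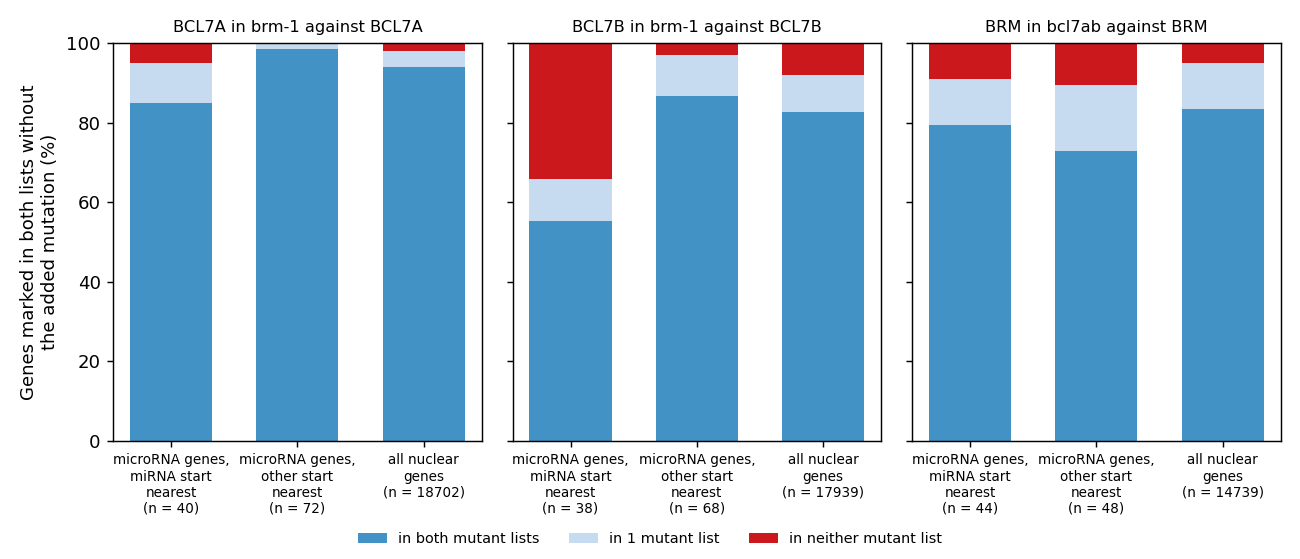
Fate of the genes marked in both libraries of the group without the added mutation, as the percent kept (in both mutant lists), partial (in 1) and lost (in neither), for each protein. The bars of a panel are miRNA genes whose strongest summit is nearest to the start of a miRNA gene, miRNA genes with another start nearest, and all nuclear genes; for BCL7B in brm-1 the lost shares are 34.2% of 38, 2.94% of 68 and 8.08% of 17939.

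Of the 15 losses, 13 lay at peaks whose nearest gene start was that of a miRNA gene. Where the strongest BCL7B summit was nearest to the start of a miRNA gene (38 members), 21 were kept, 4 partial and 13 lost (34.2%). Where it was nearest to another kind of start (68 members), 59 were kept and 2 lost (2.94%), and none of the 53 nearest to a protein-coding start was lost. Over all nuclear genes whose own start was nearest, 8.86% were lost. The median percentile of the peaks was 52.5 for the 38 and 49.9 for the 68. For BCL7A in brm-1 the lost shares were 5% of 40 members nearest to a miRNA start and 0 of 72 others. For BRM in bcl7ab the shares lay the other way, at 9.09% of 44 and 10.4% of 48, with 79.5% and 72.9% kept. This division was made after the counts had been seen, so it has no test.

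The members were also set beside all genes with peaks of like strength. Among BCL7B peaks at or under the 25 percentile 26.3% of members were lost, beside 28.3% of all genes, and between the 25 and 50 percentiles 21.2%, beside 11%. Between the 50 and 75 percentiles 7.32% were lost, beside 4.18%, and above the 75 percentile 0 of 13, beside 0.65%. For members nearest to a miRNA start, 7 of 14 between the 25 and 50 percentiles and 3 of 15 between the 50 and 75 percentiles were lost. The genome background was higher in BCL7B in brm-1 (21.9 and 23.5 fragments, against 15.7 and 17.3 in BCL7B), and its part in the losses was not tested.

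BCL7A did not follow BCL7B at these genes in every case. Of the 8 members that BCL7B lost and BCL7A marked in both libraries, BCL7A was kept in brm-1 at 4, partial at 3 and lost at 1, MIR171a. MIR167c had a fold enrichment of 3.04 and 3.25 in BCL7A in brm-1, against 3.07 and 4.44 in BCL7A, and MIR822 had 2.65 and 2.74, against 3.39 and 2.99. Over all nuclear genes the same count was 654 kept, 209 partial and 164 lost of 1027.

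**Figure D5:**
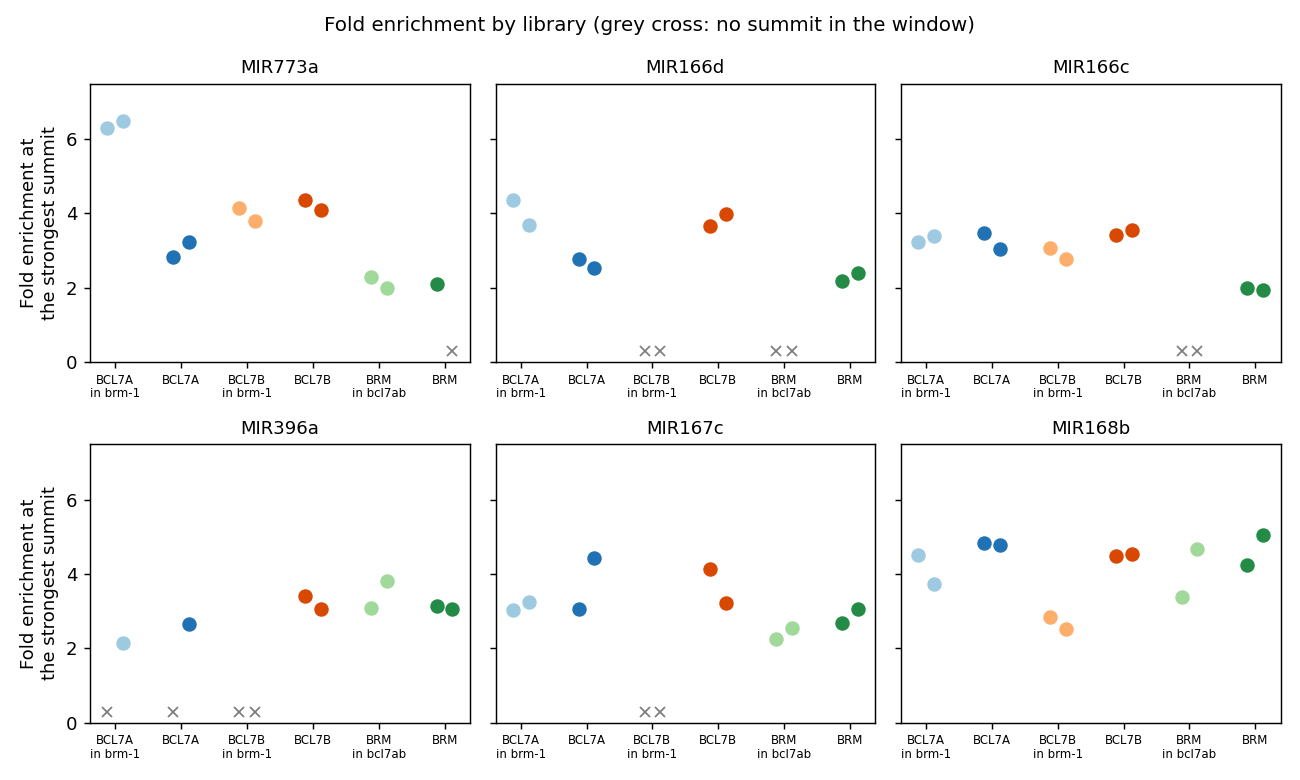
Fold enrichment of the strongest peak in the window of chosen miRNA genes in each of the 12 libraries, with each mutant group left of its counterpart, and a grey cross where a library has no summit in the window. MIR166d and MIR396a have BCL7B peaks between 3.06 and 3.99 and none in BCL7B in brm-1, and MIR773a has BCL7A peaks of 6.30 and 6.49 in brm-1, against 2.81 and 3.23.

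The DNA under the summits of the lost BCL7B peaks of MIR166d and MIR396a, and under the BCL7A peak of MIR773a that rose, is printed to show what lies there. Each window is centred on the summit of replicate 1 of BCL7B or BCL7A, and is read 5′ to 3′ on the strand of the gene from RefSeq TAIR10.1. Capitals mark matches, on either strand, to the repeat GAGAGA, to the G-box CACGTG, to the telo-box AAACCCTA and to the TATA-box core TATAAA.
MIR166d window, chr5:2839865-2840164, plus strand: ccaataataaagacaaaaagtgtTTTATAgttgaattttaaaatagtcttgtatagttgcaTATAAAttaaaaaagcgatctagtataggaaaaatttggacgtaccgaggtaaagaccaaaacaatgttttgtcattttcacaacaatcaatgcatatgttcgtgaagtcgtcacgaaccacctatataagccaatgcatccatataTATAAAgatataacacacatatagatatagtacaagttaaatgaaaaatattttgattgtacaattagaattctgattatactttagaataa
MIR396a window, chr2:4142443-4142742, minus strand: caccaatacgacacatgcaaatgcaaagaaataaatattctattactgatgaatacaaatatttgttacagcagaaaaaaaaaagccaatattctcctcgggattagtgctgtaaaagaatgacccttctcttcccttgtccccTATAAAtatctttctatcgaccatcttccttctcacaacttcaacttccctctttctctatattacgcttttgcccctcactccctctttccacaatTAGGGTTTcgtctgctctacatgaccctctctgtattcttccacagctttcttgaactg
MIR773a window, chr1:13067127-13067426, plus strand: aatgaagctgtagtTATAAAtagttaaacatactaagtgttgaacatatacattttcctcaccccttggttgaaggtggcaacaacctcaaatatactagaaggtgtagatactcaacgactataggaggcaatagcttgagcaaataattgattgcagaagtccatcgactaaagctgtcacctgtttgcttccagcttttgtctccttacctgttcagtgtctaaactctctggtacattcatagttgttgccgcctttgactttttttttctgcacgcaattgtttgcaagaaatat
The MIR166d window held matches to TATAAA and to no other motif of the 4. The MIR396a window held TATAAA and AAACCCTA, and its last 21 bases are those of miR396a-5p. The MIR773a window held TATAAA and the bases of miR773a itself, the summits lying 26 and 68 bp inside the annotated start in BCL7A.

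The motifs were counted in the windows of all members marked in both BCL7B libraries and of all peaks. Of 102 member windows 40.2% held GAGAGA, 12.7% CACGTG, 11.8% AAACCCTA and 35.3% TATAAA, against 41.3%, 15.8%, 7.68% and 38% of the 17429 windows of all nuclear peaks of the same library. The telo-box AAACCCTA was in 15 of 109 member windows for BCL7A (13.8%, against 7.71% of all peaks) and in 11 of 91 for BRM (12.1%, against 8.81%), and the 3 proteins share many of these genes. Of the windows of the 15 lost members 6 held GAGAGA, 0 CACGTG, 2 AAACCCTA and 8 TATAAA. Of the 77 windows of kept members 29 held GAGAGA, 12 CACGTG, 10 AAACCCTA and 24 TATAAA. These counts were not tested. A match describes these letters and does not show that a factor binds.

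New BCL7B peaks in brm-1 lay beside 6 members, against a background of 2.66% of the nuclear genes marked in neither BCL7B library. They were MIR854b, MIR854e, MIR399e, MIR860, MIR2934 and MIR782. MIR2934 and MIR782 overlap on opposite strands and shared 1 peak, with a fold enrichment of 2.04 and 2.46. MIR860 had 2.06 and 2.78, but a BCL7B peak overlapped it in both libraries with its summit just outside the window. MIR2934 was also new for BCL7A in brm-1.

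Among the 80 members marked in all 4 BCL7B libraries, 18 changed in relative strength by limma with Benjamini-Hochberg adjustment over 14822 genes. Of these, 12 rose and 6 fell, beside a background of 11.7% of genes in each direction. The direction depends on the centring: without it the fold enrichment of the median gene was 0.35 log2 lower in brm-1, and 1 member rose and 36 fell, while quantile normalization gave 7 and 6. The values that follow are relative to the library median.

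MIR835 rose most, at 2.57 and 3.27 in BCL7B in brm-1, against 1.99 and 2.13 in BCL7B (log2 difference 0.87, SE 0.137, limma adjusted p = 0.000303, Benjamini-Hochberg). Its strongest summit lay at −1533 bp in BCL7B replicate 2 and between −548 and −491 bp in the other 3 libraries, so not every value is of the same peak. The next in size were MIR8167f (0.52), MIR472 (0.51), MIR5633 (0.49), MIR158b (0.47), MIR5658 (0.46), MIR8170 (0.43), MIR1888a (0.41), MIR844 (0.40) and MIR171c (0.39). Of these, MIR171c alone belongs to a family of the role lists.

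The 6 that fell were MIR847 (−0.57), MIR5637 (−0.43), MIR826a (−0.42), MIR8121 (−0.41), MIR5017 (−0.38) and MIR168b (−0.38). MIR168b, of the AGO1 loop, was at 2.84 and 2.54 in BCL7B in brm-1, against 4.49 and 4.53 in BCL7B (limma adjusted p = 0.0351). MIR168a, which makes the same miRNA, was at 3.63 and 3.49, against 4.68 and 5.62, and was not called. MIR8121 and MIR5017 had also fallen for BCL7A, whose libraries are separate from these. Only the call for MIR835 held without each of the 4 libraries in turn. The number called was 1 without BCL7B in brm-1 replicate 1, 7 without its replicate 2, and 9 without either BCL7B library.

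BRM peaks beside miRNA genes were mostly found again without BCL7A and BCL7B. Of 92 members marked in both BRM libraries, 70 were kept in bcl7ab, 13 were partial and 9 were lost, so 76.1% were kept (95% Wilson interval 66.4% to 83.6%), beside a background of 83.5% of all nuclear genes kept and 11.5% partial. The lost share was 9.78% (5.23% to 17.6%), beside 4.97%. The number of marked members was 99 ± 5.66 in bcl7ab and 104 ± 1.41 in BRM (SD, n = 2 each; ratio 0.952, exact two-sided permutation test, p = 0.667).

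The lost genes were MIR166d, MIR166c, MIR164a, MIR5026, MIR5658, MIR5636, MIR5641, MIR8173 and MIR849. The neighbours MIR166c and MIR166d, which lie on chromosome 5 and make the same miRNA, lost BRM together: MIR166d had 2.18 and 2.40 in BRM and MIR166c had 1.99 and 1.94. The BRM summits of MIR166c were not at the same place in the 2 libraries, at −827 and 423 bp. The nearest summits in BRM in bcl7ab replicate 1 were 11337 bp from that of MIR166d and 11914 bp from that of MIR166c. MIR164a, which targets the CUC boundary genes, had 1.59 and 1.49, among the weakest peaks of the lists.

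For MIR5658, MIR8173 and MIR849 a peak of BRM in bcl7ab did overlap the BRM peak in both libraries, so 6 of the 9 had no overlapping peak. MIR5658 had the strongest of the 9 peaks, at 4.62 and 4.34 in BRM. MIR166d and MIR5026 were lost both by BRM in bcl7ab and by BCL7B in brm-1. MIR5026 had 3.21 and 3.23 in BRM and 2.45 and 2.51 in BCL7B, and no BCL7A peak. By role, 14 of 18 developmental genes, 6 of 6 auxin genes, 5 of 5 small RNA machinery genes and 3 of 3 nutrient genes were kept. Of the 18 developmental genes 3 were lost (16.7%). Over the families of known role 29 of 33 were kept (87.9%) and over the other members 41 of 59 (69.5%), beside 83.5% of all nuclear genes. The lost shares were 9.09% and 10.2%, beside 4.97%. This split is likewise a description.

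BRM peaks new in bcl7ab lay beside MIR390a, MIR160b, MIR782 and MIR169g, 4 members, beside 2.65% of the nuclear genes marked in neither BRM library. MIR390a, whose miRNA triggers the TAS3 siRNAs that limit ARF genes, had 2.94 and 2.60 in BRM in bcl7ab and no peak in the window in the other 10 libraries, although a BRM peak overlapped its peak in both libraries. MIR160b, which targets ARF10, ARF16 and ARF17, had 1.66 and 1.85. Of the 4 new members, 2 were overlapped by a BRM peak in both libraries, MIR390a being 1 of them, and 2 had no overlapping BRM peak.

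In strength, 0 of the 70 members marked in all 4 BRM libraries passed the limma threshold with Benjamini-Hochberg adjustment over 12307 genes, beside 0.065% of genes that rose and 0.0975% that fell. At an unadjusted p under 0.05 there were 16. MIR5642b (log2 difference −0.54, limma adjusted p = 0.0828), MIR166e (−0.47) and MIR166b (−0.56) had the lowest p-values. On simulated data this comparison recovered 10% of changes of 0.5 log2 and 90% of changes of 1. A count of 0 therefore cannot exclude changes near 0.5. With the replicate number as a block 4 members passed, and 2 passed without BRM replicate 1.

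The brm-1 changes of the 2 BCL7 proteins were set against each other at the 78 members marked in all 8 BCL7 libraries, a comparison added after the data had been seen. MIR773a differed between the proteins, beside 0.153% of all genes tested. In BCL7B its fold enrichment was 4.15 and 3.80 in brm-1, against 4.37 and 4.10, while in BCL7A it was 6.30 and 6.49 in brm-1, against 2.81 and 3.23. The difference of the log2 changes, BCL7B minus BCL7A, was −0.84 (SE 0.166, limma adjusted p = 0.0479, Benjamini-Hochberg over 14374 genes). It no longer passed without any 1 of the 8 libraries (limma adjusted p of 0.0573 to 0.152).

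Where the members kept their peaks, most summits stayed within 200 bp. Over the kept members the mean summit moved by a median of 24 bp between BCL7A in brm-1 and BCL7A (105 genes, 92 within 200 bp), 32.25 bp between BCL7B in brm-1 and BCL7B (80 genes, 71 within 200 bp) and 51.5 bp between BRM in bcl7ab and BRM (70 genes, 50 within 200 bp). Summits of replicates within 1 group were 30.5 to 66 bp apart.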

How the data were processed

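ChIP-seq with an antibody against GFP was analysed in 12 libraries of 14-day-old seedlings, and 8 further samples of the series (spike-in ChIP-seq and MNase-seq) were not analysed here. The authors trimmed the reads with fastp, aligned them to TAIR10 with Bowtie 2, discarded reads with mismatches or several positions, and ran MACS2 on each library. The submitters' processing notes name MACS2 2.1.1 and cutadapt 3.4. The deposited peak lists give the fold enrichment of each peak over its local background, which is a ratio, with the −log10 p-value and q-value and the summit position. Each peak's −log10 p-value, as deposited, gave the fragments behind its fold enrichment, and 99.6% to 99.9% of the peaks were recovered within 0.01. Further columns of some lists were not used. No peak lay past a chromosome end of TAIR10.1.

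The members and gene lists were chosen with earlier results of these data known. For each list, summits from 2000 bp upstream to 500 bp downstream of the annotated start were found with Python 3.11.15 and pandas 2.3.3, and the largest fold enrichment in the window represented the gene. Marked genes were compared between groups with the exact two-sided permutation test, and shares were given 95% Wilson intervals, which cover counting error only. In each list 2 to 9 marked members had the same strongest peak as another member. The counts and intervals treat these as separate genes. The log2 fold enrichment, centred on the library median, was tested with limma 3.58.1 in R 4.3.3 over all nuclear genes with a summit in all 4 libraries of a comparison, with Benjamini-Hochberg adjustment and a threshold of 0.05. The test was tried on simulated data with known changes of 0.5 and 1 on the log2 scale. It recovered 17% and 100% of these for BCL7A, 43% and 100% for BCL7B, and 10% and 90% for BRM. Counts past the threshold are thus not comparable between the proteins. Genes were named if they passed limma, if they were lost or new, if they were among the 10 strongest of a protein, or as examples of a role. MIR319c, MIR858b and MIR165a were named after their values had been seen, as were the groups split by nearest start and by strength. Alternative windows, peak limits, normalizations, a replicate block and each library left out were tried.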

Additional observations from a re-analysis of the deposited data

Results flagged for a closer look

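The difference between brm-1 and its counterpart at MIR773a was not the same for BCL7A and BCL7B. On the centred log2 scale it was 1.13 for BCL7A and 0.29 for BCL7B, which gives a difference (BCL7B minus BCL7A) of −0.84 with an SE of 0.166 and a limma adjusted p of 0.0479 (Benjamini-Hochberg over 14374 genes, 0.153% of which passed). It was the only one of 78 members to pass, with 8 at an unadjusted p under 0.05. The fold enrichment was 6.30 and 6.49 in BCL7A in brm-1, against 2.81 and 3.23 in BCL7A, and 4.15 and 3.80 in BCL7B in brm-1, against 4.37 and 4.10 in BCL7B. BCL7B was not called by itself (0.28, limma adjusted p = 0.111), and its fold enrichment before centring was lower in brm-1. This comparison was added after the data had been seen. Without each of the 8 libraries in turn the difference was −0.93 to −0.74 and no longer passed (limma adjusted p of 0.0573 to 0.152).

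MIR166d was listed differently by protein in brm-1. BCL7A was 0.64 higher on the centred log2 scale (limma adjusted p = 0.0354, and 0.105 without BCL7A in brm-1 replicate 1), while the BCL7B peak, with a fold enrichment of 3.65 and 3.99 in BCL7B, was in neither BCL7B list in brm-1. A missing peak has no value and gives no direction, so the difference between the proteins was not tested.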

How the results depend on the processing

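The ratio of marked members for BCL7A (1.02) turned to 0.989 with a window of 1 kb upstream, 0.958 with 500 bp, 0.985 with a fold enrichment of 3 or more and 0.980 with summits nearest to a miRNA start, and that for BRM (0.952) turned to 1.04 with the last. The position difference between BRM and BCL7B was −12 to 33 bp with 1 library left out. The kept share moved to 85.7% (1 kb), 80% (500 bp), 84.5% (fold of 3) and 75.6% (miRNA start) for BCL7A, and to 66.2%, 66%, 46.8% and 50% for BCL7B. For BRM it moved to 61.9% with the 500 bp window and 83.9% with any base of a peak in the window. The count in all 12 lists was 23, 13 and 10 with the 1 kb window, the 500 bp window and miRNA starts. With 1 library left out the kept shares were 86.1% to 96.4%, 66.9% to 81.1% and 71.8% to 83.7%, and the lost counts 4 to 7, 20 to 23 and 13 to 16, for BCL7A, BCL7B and BRM. Such lost counts cannot fall below the main ones, because fewer lists then have to meet the rule. With a fold of 3 BCL7B lost 24. With lists of equal length, added after seeing the data, the kept shares were 92%, 79.8% and 74.7%. The counts past the limma threshold with 1 library left out were 2 to 4, 1 to 9 and 0 to 2. For BCL7B it was 37 without centring, where MIR5659 turned to −0.0055, and for BRM 1 with summits within 200 bp. The causes were not tested.

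The replicate numbers are shared across groups. Correlations of same-numbered deviations were 0.0024, −0.0137 and −0.0062 for BCL7A, BCL7B and BRM over all genes tested, and −0.149, −0.0244 and −0.0312 over the members. With 2 libraries per group these values cannot show whether same-numbered libraries share a batch. With a replicate block the limma counts of members were 4, 19 and 4. Over all genes the calls were 581, 3752 and 621 with the block, against 140, 3467 and 20 without it. The paired test of marked members gave an exact permutation p of 1, 0.5 and 0.5, where 0.5 is the smallest it allows. The fold at which a peak enters a list limits all lost and new calls.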
